A study of Mus musculus with 8 samples.

Results

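Genes of blood vessel endothelium, of its barrier functions and of pericytes were followed in rRNA-depleted total RNA of the organ of Corti, the strip of hair cells and supporting cells that senses sound in the mouse inner ear, micro-dissected at P0, the day of birth. The 35 genes were listed by name for their known cell type or role, with earlier results of these data known. All 35 were found among the 41079 genes of the count tables. The groups compared were 4 wildtype libraries and 4 libraries labelled Prox1 knock-out (Emx2-cre; floxed-Prox1), in which Cre recombinase is driven from Emx2 and deletes floxed Prox1. The labels do not say whether the wildtype animals carried Cre or a floxed allele, nor whether a library holds 1 animal or a pool, so the p-values cover only the spread among these samples, and that spread could be technical. Libraries held 29908965 to 42318233 counts, and each library labelled knockout was less deep than each wildtype library (two-sided exact permutation p = 0.0286 over 70 assignments, the smallest this design allows).

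Blood vessels are tubes of endothelial cells joined by adherens and tight junctions and wrapped by pericytes, contractile mural cells that share their basement membrane. Endothelial growth and survival depend on VEGF receptors and on the angiopoietin receptor Tie2, and pericytes are recruited by PDGF-B acting on its receptor PDGFRβ. In the cochlea the sensory epithelium itself has no vessels. Capillaries run below the basilar membrane, in the spiral limbus and, with a tight blood-labyrinth barrier, in the stria vascularis of the lateral wall. In bulk tissue such as this, fewer cells of a type and less RNA per cell cannot be told apart. Several of the listed genes are also used outside vessels, among them Slc2a1, Ets1, Fli1, Pdgfrb, Cspg4 and Angpt1.

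The start regions of 5 members are shown, picked with their fitted differences in view. They are the 4 receptors for VEGF and angiopoietin signalling, whose fitted differences lay close together, and Emcn, which lay on the other side of 0. None of the 5 passed the adjusted threshold of the comparison given below. Promoter windows from RefSeq (GRCm38.p6, 250 bases before to 50 after the start) were found by symbol for 19 of the 35 members. There were 23 windows in all, because Egfl7 and Erg have several. A start used for a window need not be the outer end of the gene. The Kdr window lies inside the RefSeq span of Kdr, a minus-strand gene whose span ends at base 75979072. Capitals mark matches on either strand to 4 spellings of the core bound by ETS factors, the family of the members Erg, Fli1 and Ets1. In order, the first spelling searched was AGGAAG, the second of them CGGAAG, a further spelling starting earlier was CAGGAA, and the last of these was CCGGAA. Spellings that share a core can overlap. The windows lie at chr5:75978406-75978705 (minus strand) for Kdr, chr5:147725962-147726261 (minus) for Flt1, chr4:94739039-94739338 (plus) for Tek, chr4:118489800-118490099 (minus) for Tie1 and chr3:137340828-137341127 (plus) for Emcn.
Kdr: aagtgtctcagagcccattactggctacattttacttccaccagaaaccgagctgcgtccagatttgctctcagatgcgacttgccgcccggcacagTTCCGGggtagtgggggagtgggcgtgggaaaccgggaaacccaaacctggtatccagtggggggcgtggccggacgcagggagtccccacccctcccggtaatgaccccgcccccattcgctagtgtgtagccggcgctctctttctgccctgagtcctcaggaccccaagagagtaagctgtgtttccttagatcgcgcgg
Flt1: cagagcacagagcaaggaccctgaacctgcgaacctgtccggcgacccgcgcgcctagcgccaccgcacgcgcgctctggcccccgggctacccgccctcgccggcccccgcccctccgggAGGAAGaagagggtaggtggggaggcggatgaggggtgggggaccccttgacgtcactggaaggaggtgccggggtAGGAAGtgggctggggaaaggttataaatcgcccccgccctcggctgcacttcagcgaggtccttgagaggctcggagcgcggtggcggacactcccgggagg
Tek: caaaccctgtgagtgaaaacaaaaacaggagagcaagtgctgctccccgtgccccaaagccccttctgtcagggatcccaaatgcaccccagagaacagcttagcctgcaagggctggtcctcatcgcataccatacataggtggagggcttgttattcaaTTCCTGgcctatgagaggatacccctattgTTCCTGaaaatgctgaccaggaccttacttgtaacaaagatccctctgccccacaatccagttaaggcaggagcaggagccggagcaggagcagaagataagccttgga
Tie1: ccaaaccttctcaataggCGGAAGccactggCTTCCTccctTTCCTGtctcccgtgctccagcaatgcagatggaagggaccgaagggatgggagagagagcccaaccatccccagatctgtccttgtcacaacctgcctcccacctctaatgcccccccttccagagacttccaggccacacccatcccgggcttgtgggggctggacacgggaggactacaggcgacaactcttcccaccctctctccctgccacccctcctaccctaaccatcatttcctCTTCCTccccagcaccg
Emcn: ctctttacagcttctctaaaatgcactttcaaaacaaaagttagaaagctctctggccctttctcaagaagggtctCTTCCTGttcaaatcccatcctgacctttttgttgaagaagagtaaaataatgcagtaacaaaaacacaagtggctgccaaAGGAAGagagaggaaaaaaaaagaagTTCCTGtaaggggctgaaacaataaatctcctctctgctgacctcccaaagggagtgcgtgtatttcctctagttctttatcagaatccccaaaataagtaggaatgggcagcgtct

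The windows of Tie1 and Emcn hold 4 matches each, those of Flt1 and Tek 2 each and that of Kdr 1. Among the 23 member windows, 14 hold CAGGAA (60.9%), against 30.6% of the 32851 windows of all genes. Counted by gene, 13 of the 19 members with a window hold it. AGGAAG was found in 11 member windows (47.8%, against 35.4% of all windows). CGGAAG occurred in 1 member window (4.35%, against 16.9% of all). The spelling CCGGAA also occurred in 1 (4.35%, against 14.9%). Any of the 4 spellings was found in 17 member windows (73.9%, against 59.9% of all). The spellings differ in their direction relative to all windows, they were chosen with the values in view, and a match is a description of letters, not of a bound site. Base composition also differs, with 41.0% G and C in the Emcn window and 70.7% in that of Flt1.

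Every member was detected in every library, and all 35 passed the low-count filter of the test, which 20581 genes passed. The lowest raw count of a member was 51, for Icam2, and the highest 8999, for Pdgfrb. The markers that define endothelium (Pecam1, Cdh5, Kdr, Tie1, Cldn5, Emcn, Esam and Egfl7) and pericytes (Pdgfrb, Rgs5, Cspg4, Kcnj8 and Abcc9) were therefore present, so the name of the gene group holds as far as detection goes. Levels between genes were set side by side as CPM (the gene's count scaled to the TMM-adjusted library total) per kb of exon. On that scale Emcn, the sialomucin endomucin of capillary and venous endothelium, led the wildtype libraries at 40.9 ± 3.11 (SD, n = 4), with the pericyte receptor Pdgfrb at 38.5 ± 2.87, within the spread of Emcn. The pericyte gene Rgs5 followed at 27.2 ± 2.40, then Ets1 at 22.4 ± 2.00, Eng at 21.7 ± 2.03, Slc2a1 at 19.4 ± 1.09, Fli1 at 17.5 ± 1.55, Cdh5 at 15.5 ± 2.21 and Cldn5 at 15.3 ± 1.28 CPM per kb.

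Egfl7 at 10.9 CPM per kb to Pdgfb at 4.86 formed a run of 12 genes in which no neighbours differed beyond their SDs. That run includes Cd34, Mfsd2a, Tek, Kdr, Tie1, Pecam1, Esam, Plvap, Cspg4 and Erg. Below it stood Abcc9, Angpt1, Sox18 and Notch4 (3.77 to 3.18), then Kcnj8 and Flt1 (2.28 and 2.17), and then Robo4, Angpt2, Icam2, Nos3, Abcb1a and Sox17 (1.81 to 1.28). The lowest were Sox7 at 0.81 ± 0.06 and Vwf at 0.50 ± 0.19 CPM per kb, 82.0-fold below Emcn. Each gap between neighbouring genes in the order was within the sum of their SDs except those after Pdgfrb, Rgs5, Cldn5, Pdgfb, Notch4, Flt1, Sox17 and Sox7.

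**Figure D1:**
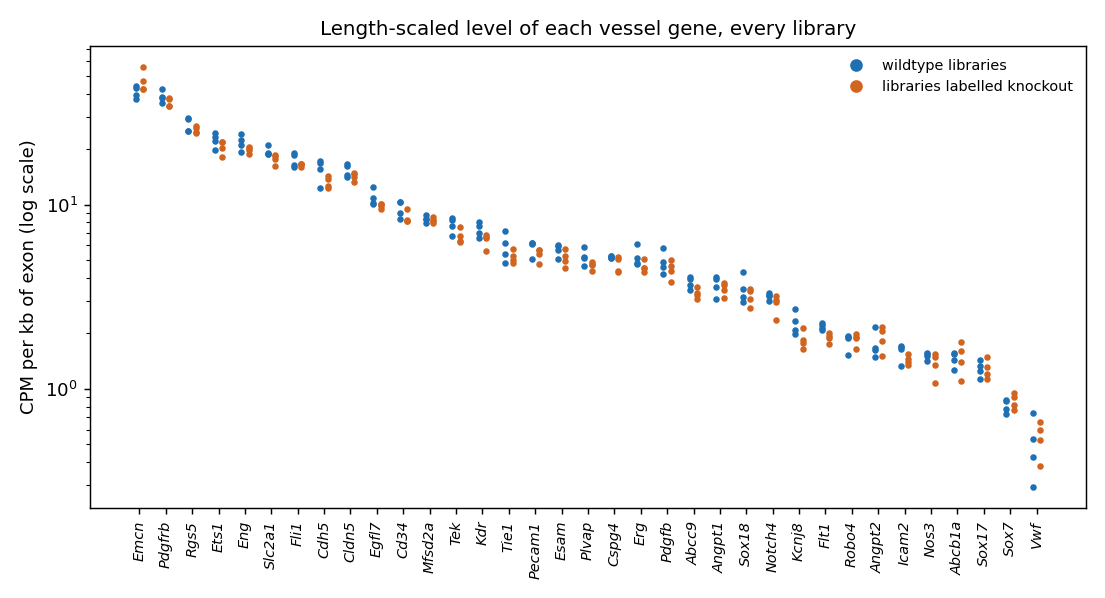
Level of each of the 35 vessel genes in CPM per kb of exon (log axis), with 1 point per library, wildtype in blue and libraries labelled knockout in orange. Genes are ordered by their wildtype mean, from Emcn at 40.9 to Vwf at 0.50 CPM per kb, and the 2 colours overlap or lie close for every gene.

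Prox1, the targeted gene and itself a known regulator of lymphatic endothelium, did not follow the labels. Its CPM values were 109, 114, 106 and 115 in wildtype libraries 1 to 4 and 147, 136, 138 and 133 in libraries 1 to 4 labelled knockout. Every library labelled knockout lay above every wildtype library (log2 fold change 0.33 ± 0.05, SE; adjusted p = 0.0298 in edgeR's quasi-likelihood F test). Directions below are therefore those of the libraries as labelled, and loss of the floxed exons alone cannot be seen in counts summed over a gene.

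No member passed the threshold in either direction. In edgeR's quasi-likelihood F test with Benjamini-Hochberg adjustment over all tested genes, 0 of 35 members were called higher and 0 lower, where 0.0340% and 0.0583% of all tested genes were called. The smallest adjusted p of a member was 0.586, for Flt1. At an unadjusted p under 0.05, 6 members were lower and 1 was higher, against 2.78% and 4.76% of all tested genes. DESeq2 and limma-voom also called 0 members, with 6 and 5 lower and 0 higher at that unadjusted level. In the authors' deposited table of their own DESeq2 comparison, the smallest adjusted p among the members was 0.425, again for Flt1.

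Although none passed singly, the members leaned to one side by a small amount. Of the 35 log2 fold changes of labelled knockout over wildtype, 29 lay below 0 and 6 above, with a median of -0.13, beside a median of 0.00 over all 20581 tested genes, of which 10290 lay below 0. These signs are not independent results, since all members were read from the same 8 libraries. Wildtype library 1 lay above a member's own mean over the 8 libraries in 32 members. Wildtype library 4 did so in 7, as did library 4 labelled knockout. The members ranged from -0.31 (Kcnj8) to 0.20 (Emcn). The widest 95% interval, that of Vwf, ran from -0.43 to 0.65, and the lowest bound of any member was -0.61, for Kcnj8. In 2 members, Flt1 and Slc2a1, every library labelled knockout lay below every wildtype library, and in 0 did every one lie above, where 1.62% and 2.07% of all tested genes separated in these ways.

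**Figure D2:**
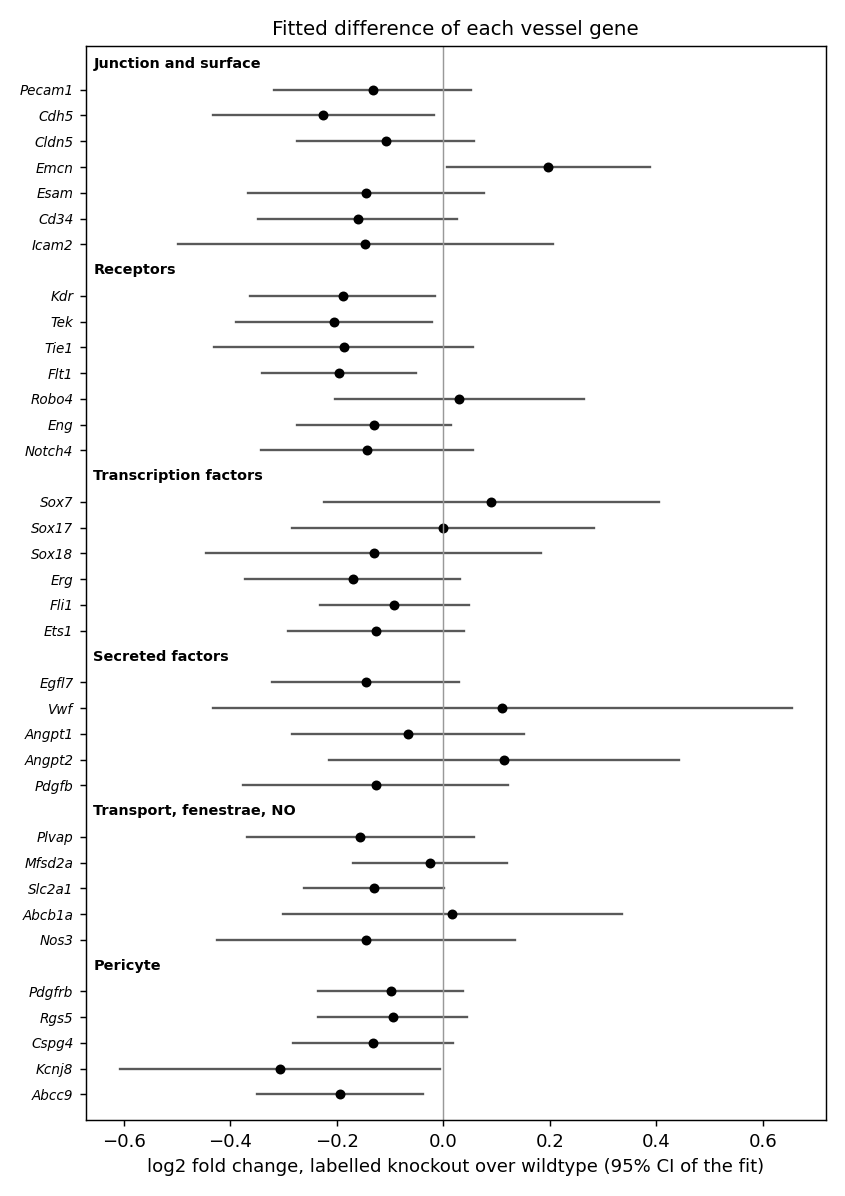
Fitted log2 fold change of each vessel gene, labelled knockout over wildtype, as a point with its 95% confidence interval (bar), grouped by role. Points lie between -0.31 and 0.20, with 29 of 35 below 0, and no gene passed the adjusted threshold.

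Among the 7 genes of junctions and the endothelial surface, 6 lay below 0 and 1 above, with a median of -0.15. Cdh5, VE-cadherin of the adherens junctions, had 68.6, 62.4, 67.5 and 49.3 CPM in wildtype libraries 1 to 4 and 55.1, 50.2, 57.4 and 49.2 CPM in libraries 1 to 4 labelled knockout. Wildtype libraries 1 to 3 lay above all the others, while wildtype library 4 lay at the bottom with library 4 labelled knockout, so the groups overlap. The log2 fold change of Cdh5 was -0.23 ± 0.10 (SE; adjusted p = 0.647 in edgeR's quasi-likelihood test). Cd34, a sialomucin of capillary endothelium and of progenitor cells, had 27.1, 21.9, 27.0 and 23.4 CPM in wildtype against 21.5, 21.3, 21.3 and 24.7 CPM in the 4 libraries labelled knockout. Its high libraries were wildtype 1 and 3, and its fitted difference was -0.16 ± 0.09.

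Emcn was the exception in this group. It had 102, 96.4, 114 and 111 CPM in wildtype libraries 1 to 4 and 121, 109, 110 and 145 CPM in libraries 1 to 4 labelled knockout. Library 4 labelled knockout stood highest, and libraries 2 and 3 labelled knockout lay among the wildtype values. The log2 fold change was 0.20 ± 0.09 (SE; adjusted p = 0.647 in edgeR's quasi-likelihood test). Without library 4 labelled knockout it was 0.10. In each wildtype library but the fourth, Emcn had 1.48 to 1.69 times the CPM of Cdh5, and in wildtype library 4 and the libraries labelled knockout 1.92 to 2.94 times. The other 4 junction and surface genes differed by less than 2 of their SEs. Pecam1, the adhesion molecule CD31, had 24.3 ± 2.25 CPM in wildtype against 22.2 ± 1.81 in the libraries labelled knockout (mean ± SD, n = 4 in both groups). Cldn5, the main claudin of endothelial tight junctions, had 21.7 ± 1.82 and 20.1 ± 1.00 CPM. Both differences were smaller than the larger SD. Esam, an adhesion molecule of endothelial tight junctions, had 10.6 ± 0.81 and 9.59 ± 0.96 CPM, and Icam2, a ligand for leukocyte integrins, 2.05 ± 0.23 and 1.84 ± 0.11 CPM.

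Receptors of endothelial cells had the lowest median of the endothelial groups, -0.19, with 6 of 7 below 0. Flt1, the VEGF receptor 1 that holds VEGF back from its main receptor, had 24.2, 23.4, 24.8 and 22.8 CPM in wildtype libraries 1 to 4 and 19.2, 21.3, 22.0 and 20.6 CPM in the 4 libraries labelled knockout. All 4 wildtype values lay above all 4 others, the nearest being 22.8 and 22.0 CPM. The log2 fold change was -0.20 ± 0.07 (SE), a change of -12.7% with a 95% interval of -21.1 to -3.50%. Kdr, the main signalling receptor for VEGF, had 45.4, 41.4, 47.4 and 39.0 CPM in wildtype against 38.8, 40.3, 39.7 and 33.1 CPM in the 4 libraries labelled knockout (log2 fold change -0.19 ± 0.08). The groups of Kdr overlap through wildtype library 4 alone. The ratio of Flt1 to Kdr CPM within a library was 0.55 ± 0.03 in wildtype against 0.55 ± 0.05 in the libraries labelled knockout (mean ± SD, n = 4 in both groups), a difference smaller than the SD.

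Both angiopoietin receptors lay below 0, and neither passed. Tek, which encodes Tie2, had 39.8, 35.8, 38.8 and 31.6 CPM in wildtype libraries 1 to 4 and 29.9, 31.9, 29.3 and 35.5 CPM in libraries 1 to 4 labelled knockout. Wildtype library 4 lay within the range of the other group, and library 4 labelled knockout lay close to wildtype library 2. The log2 fold change of Tek was -0.21 ± 0.08 (SE). Tie1, the partner receptor without a high-affinity ligand of its own, had 26.9 ± 4.79 CPM in wildtype against 23.6 ± 1.75 CPM in the 4 libraries labelled knockout (mean ± SD, n = 4 in both groups), with 32.9 CPM in wildtype library 1 as its highest value. Its log2 fold change was -0.19 ± 0.11 (SE), and -0.0769 without that library. Eng, the TGF-beta co-receptor endoglin, had the highest CPM per kb among the receptors, with 86.0, 75.2, 80.4 and 69.1 CPM in wildtype against 73.5, 72.5, 70.7 and 67.1 CPM in the 4 libraries labelled knockout. Wildtype libraries 1 to 3 lay above all libraries labelled knockout, and wildtype library 4 lay among them (log2 fold change -0.13 ± 0.07, and -0.0786 without wildtype library 1). Notch4, the Notch receptor of endothelium, had 21.0 ± 0.85 and 19.0 ± 2.41 CPM. Robo4, an endothelial guidance receptor, had 9.25 ± 1.00 and 9.45 ± 0.75 CPM, with a log2 fold change of 0.03 ± 0.11.

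**Figure D3:**
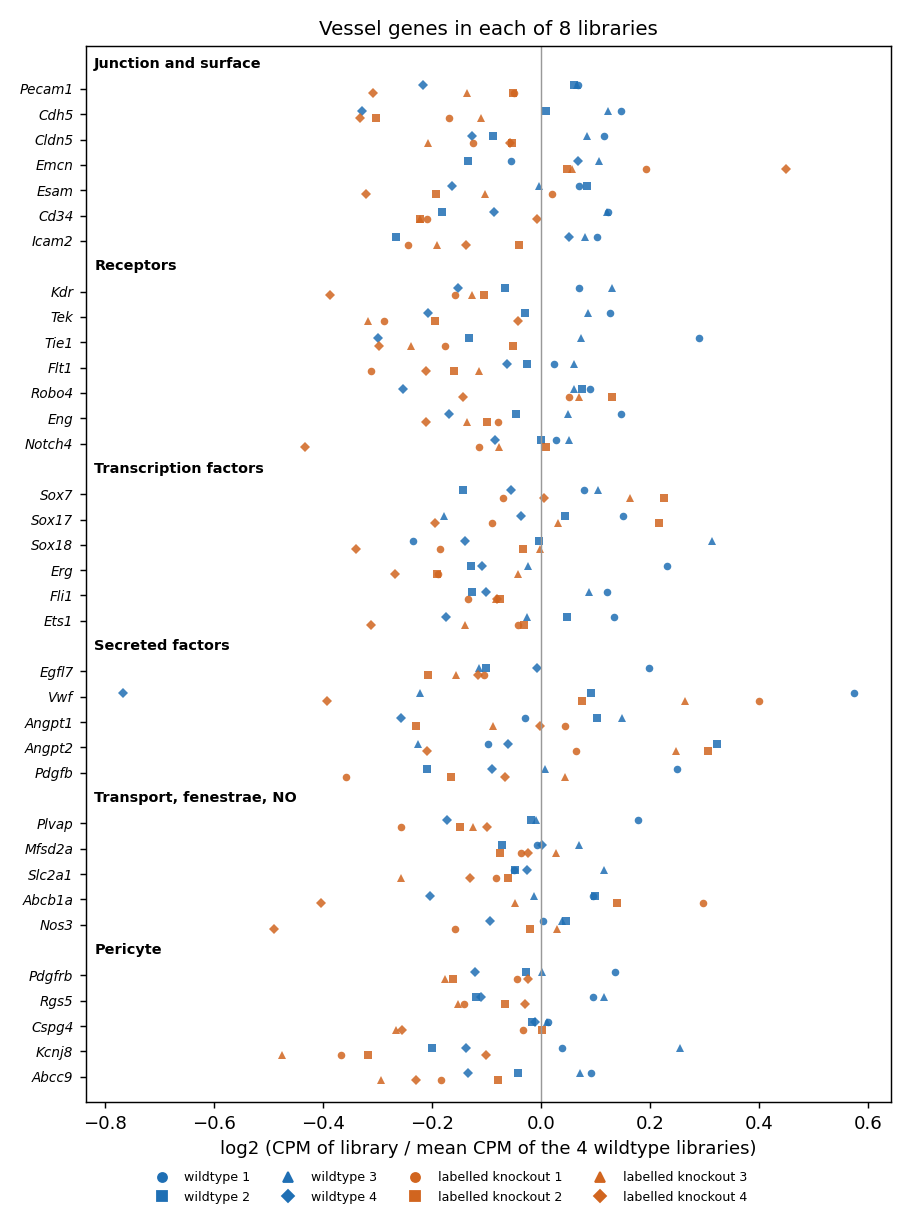
Each vessel gene in each library, as log2 of its CPM over the mean CPM of the 4 wildtype libraries (horizontal axis), grouped by role, with wildtype in blue, libraries labelled knockout in orange and the marker shape giving the library number. Wildtype libraries 1 and 3 (blue circles and triangles) hold the highest value in 27 of 35 genes, and Emcn shows library 4 labelled knockout far to the right.

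Of the 6 transcription factors, 5 lay below 0, with a median of -0.11. Erg, an ETS factor that maintains endothelial identity, had 21.1, 16.4, 17.7 and 16.7 CPM in wildtype libraries 1 to 4 and 15.8, 15.7, 17.4 and 14.9 CPM in the 4 libraries labelled knockout. Only wildtype libraries 1 and 3 exceeded all libraries labelled knockout. The fitted difference of Erg was -0.17 ± 0.09 (SE), and -0.0846 without wildtype library 1. Ets1, an ETS factor of endothelium, mesenchyme and lymphocytes, had 125, 118, 112 and 101 CPM against 111, 111, 103 and 91.7 CPM, with the fourth library lowest in both groups. Fli1, the ETS factor of endothelial and blood lineages, had 63.2, 53.2, 61.8 and 54.1 CPM in wildtype against 52.9, 55.1, 54.9 and 54.9 CPM in the 4 libraries labelled knockout. The libraries labelled knockout sat together at the level of wildtype libraries 2 and 4. Fli1 and Ets1 are near neighbours, with 3 genes between them in the RefSeq order of GRCm38.

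The SoxF factors, which act together in vessel and lymphatic specification, were scarce and did not separate. Sox17, linked to arterial identity, had 5.26 ± 0.50 CPM in wildtype against 5.26 ± 0.65 in the libraries labelled knockout (mean ± SD, n = 4 in both; log2 fold change -0.00 ± 0.13). Sox18 had 5.62 ± 0.97 and 5.13 ± 0.54 CPM. Sox7 had 2.67 ± 0.21 and 2.83 ± 0.27 CPM. The 95% intervals of the 3 genes ran from -0.45 to 0.40 on the log2 scale at the outside, so shifts of that size in either direction were not resolved.

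Secreted factors were the most mixed group, with 3 of 5 below 0 and a median of -0.07. Egfl7, an endothelial matrix protein that guides tube formation, had 23.5, 19.1, 18.9 and 20.4 CPM in wildtype libraries 1 to 4 and 19.0, 17.7, 18.3 and 18.9 CPM in the 4 libraries labelled knockout. Wildtype library 1 was highest. The fitted difference of Egfl7 was -0.15 ± 0.08 (SE), and -0.0735 without that library. Pdgfb, the endothelial signal that recruits pericytes, had 17.0, 12.4, 14.4 and 13.5 CPM against 11.2, 12.8, 14.8 and 13.7 CPM, a full overlap apart from wildtype library 1 at the top and library 1 labelled knockout at the bottom. Angpt1, the agonist of Tie2 supplied mainly by mural and mesenchymal cells, had 15.6 ± 1.90 and 14.9 ± 1.21 CPM. Angpt2, its context-dependent antagonist made by endothelium, had 6.19 ± 1.07 and 6.71 ± 1.03 CPM. The ratio of Angpt1 to Angpt2 CPM within a library was 2.56 ± 0.52 in wildtype against 2.28 ± 0.52 in the libraries labelled knockout, a difference below the SD.

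Vwf, the clotting factor stored by endothelial cells and platelets, varied most. Its values were 7.26, 5.20, 4.18 and 2.87 CPM in wildtype libraries 1 to 4 and 6.44, 5.14, 5.86 and 3.72 CPM in libraries 1 to 4 labelled knockout. Its coefficient of variation was 38.0% in wildtype against 22.2% in the libraries labelled knockout, where the median over members was 9.32% and 8.11%. The 9 platelet and megakaryocyte markers summed to 17.9 to 22.8 CPM in wildtype against 20.9 to 22.8 CPM for the other group, and none was at 0 in all libraries. Their part in the Vwf values was not tested.

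Of the 5 genes of transport, fenestrae and nitric oxide, 4 lay below 0, with a median of -0.13. Slc2a1, the glucose transporter GLUT1 of barrier endothelium that many other cells also use, had 61.1, 61.1, 68.5 and 62.1 CPM in wildtype libraries 1 to 4 and 59.7, 60.6, 52.9 and 57.7 CPM in the 4 libraries labelled knockout. The groups did not overlap, but the nearest values, 61.1 and 60.6 CPM, almost touched (log2 fold change -0.13 ± 0.06, SE). Mfsd2a, the lipid transporter that keeps transcytosis low in barrier capillaries, had 18.0 ± 0.72 and 17.7 ± 0.52 CPM (SD, n = 4 in both groups). The 95% interval of its change ran from -11.1 to 8.66%. Abcb1a, the efflux pump P-glycoprotein, had 7.25 ± 0.69 and 7.35 ± 1.47 CPM. Plvap, which forms the diaphragms of fenestrated and immature endothelium and is lost from mature barrier capillaries, was counted beside the barrier genes at 11.7, 10.2, 10.3 and 9.19 CPM in wildtype against 8.67, 9.36, 9.50 and 9.67 CPM in the 4 libraries labelled knockout. Wildtype library 4 lay within the other group. Nos3, the endothelial nitric oxide synthase, had 6.25, 6.44, 6.41 and 5.85 CPM against 5.59, 6.15, 6.36 and 4.44 CPM, with library 4 labelled knockout lowest.

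All 5 pericyte genes lay below 0, with a median of -0.13, and 0 passed. Pdgfrb, the PDGF-B receptor of pericytes and of mesenchyme, had 232, 207, 211 and 194 CPM in wildtype libraries 1 to 4 and 205, 189, 187 and 208 CPM in libraries 1 to 4 labelled knockout. The groups interleave below wildtype libraries 1 and 3 (log2 fold change -0.10 ± 0.06, SE, and -0.0520 without wildtype library 1). Abcc9 and Kcnj8 encode the SUR2 and Kir6.1 subunits of the pericyte ATP-sensitive potassium channel and lie next to each other, with 0 genes between them in the RefSeq order of GRCm38. Abcc9 had 33.7, 30.7, 33.2 and 28.8 CPM in wildtype against 27.8, 29.9, 25.8 and 26.9 CPM in the 4 libraries labelled knockout (-0.19 ± 0.07). Kcnj8 had 5.97, 5.06, 6.93 and 5.28 CPM against 4.51, 4.66, 4.18 and 5.42 CPM (-0.31 ± 0.14). In Abcc9 the overlap came from wildtype library 4 and library 2 labelled knockout, and in Kcnj8 from library 4 labelled knockout. Rgs5, a regulator of G protein signalling in pericytes, had 124 ± 10.9 and 116 ± 4.80 CPM (SD, n = 4 in both groups). Cspg4, the proteoglycan NG2, had 42.2 ± 0.43 and 38.5 ± 3.77 CPM, so closely grouped in wildtype that its coefficient of variation there, 1.02%, was the lowest of any member.

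Most members were highest in the same few wildtype libraries. Wildtype library 1 held the highest of the 8 values in 18 members and wildtype library 3 in 9, while wildtype library 4 held it in 0. Library 4 labelled knockout held the lowest of the 8 in 12 members and library 3 labelled knockout in 8. Within wildtype, library 4 was lowest in 19 members. Summed over the 8 endothelial markers, CPM was 332, 301, 335 and 292 in wildtype libraries 1 to 4 (315 ± 22.0, SD, n = 4) and 312, 297, 299 and 317 in libraries 1 to 4 labelled knockout (306 ± 9.52), a difference smaller than the wildtype SD. Emcn, which goes the other way, makes up a large share of that sum. Over the 7 markers without it, a set formed after its values were seen, CPM was 230, 204, 221 and 181 in wildtype libraries 1 to 4 and 191, 188, 189 and 172 in libraries 1 to 4 labelled knockout. The 5 pericyte markers summed to 446, 398, 428 and 384 CPM and to 390, 384, 363 and 397 CPM. Pdgfrb, which mesenchyme also expresses, makes up the largest share of the pericyte sum. Its wildtype mean was 211 CPM, beside 414 CPM for the sum, so the sum is not a measure of pericytes alone. In the 7-marker and pericyte sums wildtype library 4 lay among the libraries labelled knockout, and wildtype libraries 1 and 3 stood highest.

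Markers of other cell types also differed between these libraries. The 10 markers of marginal and intermediate cells of the stria vascularis, a tissue rich in capillaries, summed to 137, 91.1, 103 and 71.2 CPM in wildtype libraries 1 to 4 and to 54.3 to 67.6 CPM in the other group. All 8 tested stria markers lay below 0, with a median log2 fold change of -1.78. At an unadjusted p under 0.05, 7 of these 8 were lower (2.78% of all tested genes), and 0 were called. Of the 11 markers of periotic mesenchyme and fibrocytes, 8 lay below 0, and they summed to 5800 to 7092 CPM in wildtype against 5009 to 5876 CPM in the 4 libraries labelled knockout, with wildtype library 1 highest. Red cell markers (8 of 9 tested below 0), which report blood left in the tissue, summed to 1777 to 4068 CPM in wildtype against 1428 to 2593 CPM in the other group. The 14 macrophage markers in the table summed to 95.7 to 123 CPM and 97.3 to 112 CPM, with 9 of 14 below 0. Median log2 fold changes were -0.12 for the mesenchyme markers, -0.30 for the red cell markers and -0.02 for the macrophage markers. At an unadjusted p under 0.05, 3 of 11 mesenchyme, 3 of 9 red cell and 0 of 14 macrophage markers were lower, and 0 were called. The 7 lymphatic endothelium markers summed to 68.8 to 91.1 CPM and 68.3 to 83.4 CPM, with 6 of 7 below 0, a median of -0.22, 2 lower at an unadjusted p under 0.05 and 0 called. Markers of glia, hair cells and supporting cells had medians of -0.04 (4 of 7 below 0), -0.05 (6 of 9) and 0.00 (4 of 8), and the glia markers summed to 789 to 894 CPM and 800.5 to 882 CPM. No marker on these 8 lists was at 0 in all libraries. Their part in the lean of the vessel genes was not tested. Without wildtype libraries 1 and 3 the median log2 fold change of the members was -0.05, with 25 of 35 below 0. Those libraries hold the highest value in 27 of 35 members, so leaving them out had to shrink the difference.

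**Figure D4:**
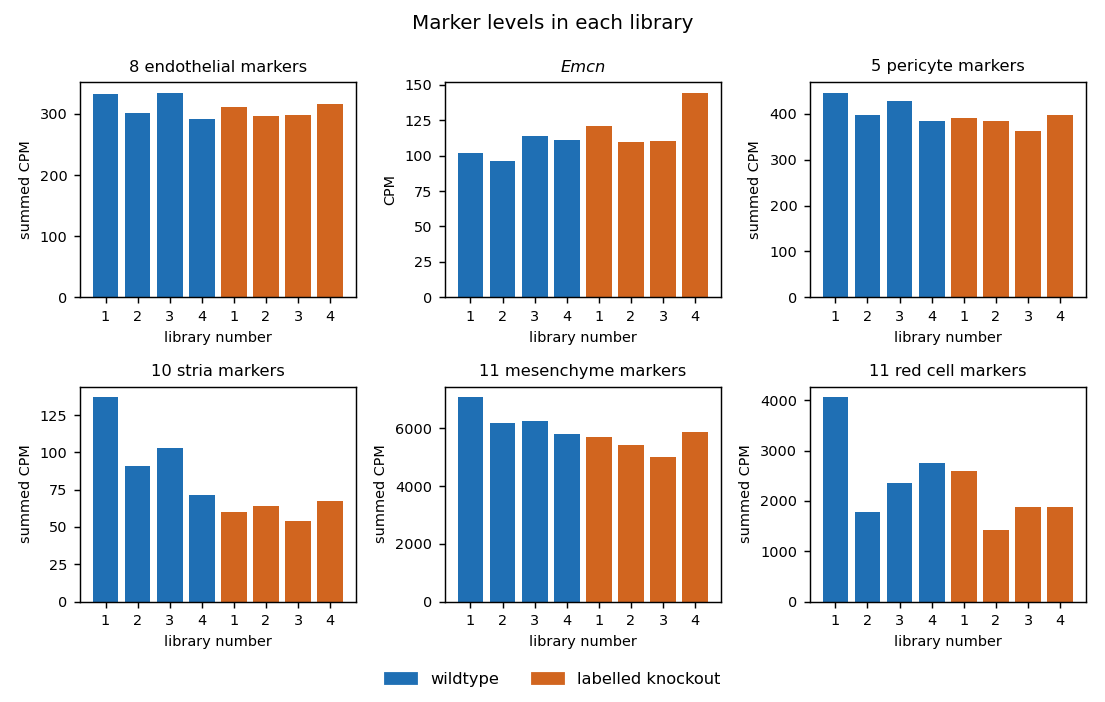
Summed CPM per library (bars, from 0) of 8 endothelial markers, Emcn alone, 5 pericyte markers, 10 stria markers, 11 mesenchyme markers and 11 red cell markers, with wildtype libraries 1 to 4 in blue and libraries 1 to 4 labelled knockout in orange. Wildtype library 1 is highest for the pericyte, stria, mesenchyme and red cell lists, wildtype library 3 for the 8 endothelial markers (335 CPM), and library 4 labelled knockout for Emcn (145 CPM), where the endothelial sum is 317 CPM.

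The wider vessel programme gave a like picture, with 1 call. Of 17 tested VEGF, apelin and angiopoietin pathway partners 0 passed and 11 lay below 0 (median -0.12). The smallest p there belonged to Plxnd1, the endothelial semaphorin receptor, at 204 ± 11.1 CPM in wildtype against 180 ± 11.4 CPM in the 4 libraries labelled knockout (mean ± SD, n = 4 in both groups). Vegfa itself, the ligand of Kdr and Flt1, had 42.7 ± 1.90 and 45.3 ± 4.65 CPM, and was named after its values were seen. Of 30 other endothelial identity genes 24 lay below 0 (median -0.06) and 1 was called lower. That gene was Tal1, a basic helix-loop-helix factor of blood and endothelial lineages, with 7.52, 7.82, 8.19 and 7.76 CPM in wildtype against 2.30, 1.37, 1.20 and 0.76 CPM in the 4 libraries labelled knockout (log2 fold change -2.48 ± 0.24, SE; adjusted p = 0.000755 in edgeR's quasi-likelihood test). The groups lay far apart, while the ETS and SoxF factors among the members stayed within 0.17 of 0. Pdzk1ip1, a gene of the same locus as Tal1, had the smallest p and the lowest log2 fold change (-2.94) of all tested genes. Whether these differences share a cause was not tested.

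Barrier and Wnt-Norrin genes outside the members had 19 of 24 below 0 (median -0.10) and 0 called, with the smallest p for the amino acid transporter gene Slc7a5 (log2 fold change -0.20 ± 0.07). Arterial, venous and Notch genes had 10 of 15 below 0 (median -0.07) and 0 called. The smallest p in that list belonged to Mgp, an inhibitor of calcification and BMP signalling, at 18.1 ± 3.36 and 12.3 ± 1.66 CPM (-0.56 ± 0.14). Other pericyte and smooth muscle genes had 20 of 25 below 0 (median -0.07) and 0 called, with Cox4i2, a respiratory chain subunit used by pericytes, at 3.14 ± 0.36 and 2.22 ± 0.28 CPM. All 10 vessel basement membrane genes, which epithelium and mesenchyme also make, lay below 0 (median -0.17), and in 6 of them (Col4a1, Col4a2, Lama4, Nid1, Nid2 and Hspg2) every library labelled knockout lay below every wildtype library. None of the 10 was called. At an unadjusted p under 0.05, 8 of the 10 were lower (2.78% of all tested genes), and the 6 that did not overlap stand beside 1.62% of all tested genes. Nid1, the laminin and collagen linker nidogen 1, had 379, 351, 345 and 345 CPM in wildtype against 291, 307, 297 and 318 CPM in the 4 libraries labelled knockout (-0.23 ± 0.05, SE; adjusted p = 0.326 in edgeR's quasi-likelihood test).

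The fitted lean of the members depended on the libraries more than on the scaling or the tool. The median log2 fold change lay between -0.14 and -0.12 under the other scalings, filters and tests, and between -0.16 (without wildtype library 4) and -0.08 (without wildtype library 1) with 1 library left out. Single members moved more. Without wildtype library 1, 16 of 35 members moved by over 1.5 times or changed sign, and without library 4 labelled knockout 12 did. Among the members given by library, the value without wildtype library 1 was -0.0337 for Pdgfb, -0.05 for Fli1, -0.0800 for Ets1 and -0.0922 for Plvap. Without library 4 labelled knockout it was -0.0710 for Ets1 and -0.0483 for Nos3.

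**Figure D5:**
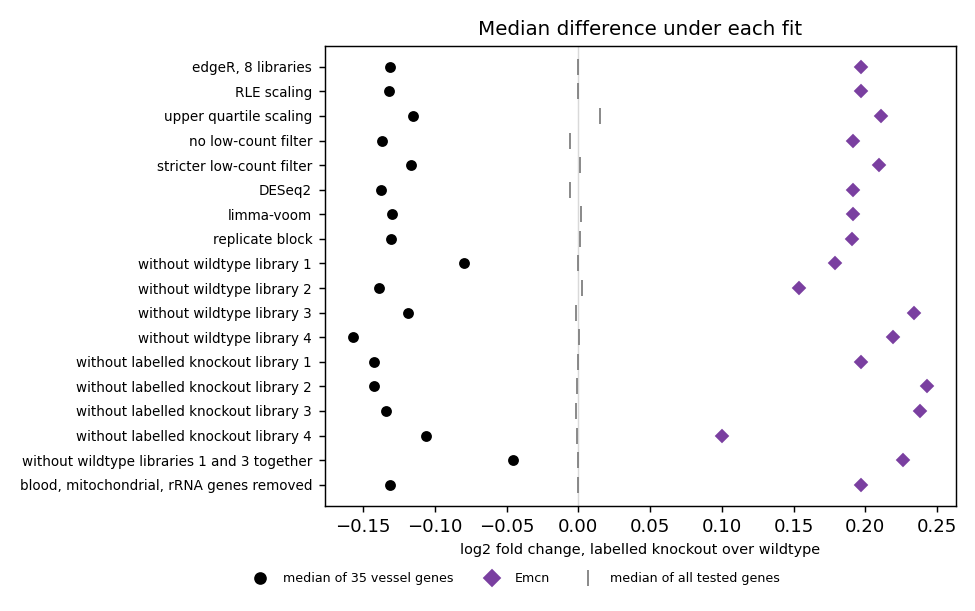
Median log2 fold change of the 35 vessel genes (black circles), that of Emcn (violet diamonds) and the median of all tested genes (grey ticks) under each fit, labelled knockout over wildtype. The member median runs from -0.16 to -0.05 and stays below 0, Emcn runs from 0.10 to 0.24, and the median of all tested genes stays between -0.00565 and 0.0148.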

How the data were processed

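For each of 8 libraries the authors deposited raw gene counts, whole numbers per the file headers and the values. RNA came from Qiagen RNeasy kits, and rRNA-depleted libraries from NEBNext Ultra II kits, per the labels' protocols. FastQC 0.12.1, cutadapt 4.3, HISAT2 2.2.1, featureCounts, DESeq2 and build GRCm39 are named in the submitters' processing notes. Not given in the sources used here are the annotation, strand setting and treatment of multi-mapping reads, so overlapping antisense genes could share counts. The authors also deposited a DESeq2 table, whose log2 fold changes and adjusted p-values are given as theirs.

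Groups came from the labels' titles, and columns were matched by library name. Genes were kept with filterByExpr of edgeR 4.0.16 (minimum count 10; R 4.3.3), and 8065 genes had no count. CPM uses TMM-scaled library totals. Genotype was the single factor in edgeR's quasi-likelihood test, adjusted over 20581 genes at 0.05. SEs are the fold change over the root of F. The test was tried on simulated data. Alternatives were RLE and upper quartile scaling, no filter, 50 counts in 4 libraries, DESeq2 1.42.0, voom of limma 3.58.1, the replicate number as a block, libraries left out, 99 blood, mitochondrial and ribosomal RNA genes removed, and thresholds of 0.01 and 0.1. Exon lengths are unions of GENCODE M21 basic exons (GRCm38), which may differ from those counted. No libraries of 1 group agreed within sampling noise (lowest chi-square per degree of freedom 10.7).

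Members, role groups and lists were chosen with earlier results of these data known. Given per library were, for each role, the members with the highest CPM and the smallest p, up to 3. Kdr and Vwf were added after their values were seen, and for each other list any gene called, else that with the smallest p, was named where the list bears on the members.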

Additional observations from a re-analysis of the deposited data

Results flagged for a closer look

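In 6 of the 70 groups of 4 libraries (35 members in both genotypes), 1 library stood far from the other 3 by Dixon's criterion, which chance alone gives in about 1 in 20 groups. In wildtype library 4, Pecam1 was low at 21.0 CPM and Robo4 low at 7.76 CPM. Slc2a1 was high in wildtype library 3 at 68.5 CPM, and Icam2 was low in wildtype library 2 at 1.70 CPM. Among the libraries labelled knockout, Cd34 was high in library 4 at 24.7 CPM, and Fli1 was low in library 1 at 52.9 CPM. The gap of Fli1 was small, with 54.9 to 55.1 CPM in the others. Its coefficient of variation there, 1.86%, was the lowest of any member in that group.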

How the results depend on the processing

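Members called higher or lower stayed at 0 under every alternative run. Of 595 single-member values under 17 alternatives, 576 kept their direction and 0 were called. The other 19 changed sign while not passing. Sox17 was 0.0146 with upper quartile scaling, 0.0123 with the stricter filter, and -0.0825 to 0.0574 with single libraries left out. In the same leave-one-out fits Robo4 ran from -0.0456 to 0.0822, Vwf from -0.0728 to 0.365 and Abcb1a from -0.0881 to 0.132, and limma-voom gave -0.0102 for Abcb1a. Dropping wildtype libraries 1 and 3 together gave 0.0239 for Tie1, 0.0210 for Fli1, 0.0203 for Pdgfb, 0.0184 for Rgs5, 0.00748 for Mfsd2a and -0.0326 for Angpt2. The cause was not tested.

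Over all genes, 7 were called higher and 12 lower. The counts were 12 and 24 without a filter, 35 and 48 with DESeq2, 2 and 7 without wildtype libraries 1 and 3, and 2 higher at the 0.01 threshold. With 1 library left out they ran from 2 to 7 higher and from 8 to 20 lower, with 2 or 3 higher once wildtype 1 or 3, or knockout-labelled 1, 2 or 3, was dropped, and 20 lower without library 4 labelled knockout. With the replicate block, 3 genes were called higher and 12 lower, and 0 members. Same-numbered libraries did not deviate together (correlations of 0.11, 0.21, -0.28 and -0.14), and differently numbered ones ran from -0.40 to 0.37. No pairing by number was seen, though so few correlations cannot exclude one. The median member change moved by less than the spread of the wildtype libraries (0.10, log2) under each alternative. That spread is close in size to the median itself (-0.13), so this cannot show that the lean was stable. Without wildtype libraries 1 and 3 the median was -0.05.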

Other observations

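Genes used by contractile smooth muscle, chosen after their values were seen, differed widely in level. Acta2, smooth muscle actin, had 0.35 to 1.24 CPM over the 8 libraries, and Myh11, smooth muscle myosin, 0.78 to 1.73 CPM. Tagln had 0 to 3 raw counts and Cnn1 2 to 23, too few to be tested. Whether these tables undercount Tagln was not settled. Myl9, a myosin light chain of smooth muscle that other cells also make, had 39.8 to 50.4 CPM (1198 to 2016 counts). The mural receptor gene Notch3 had 177 to 192 CPM and the intermediate filament gene Des 9.25 to 13.2 CPM in the same libraries.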
